A study of Homo sapiens with 4 samples.

Results

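The genes described here encode 10 enzymes that make non-essential amino acids or feed mitochondrial one-carbon metabolism, and that are mostly known as targets of the stress transcription factor ATF4. They were taken by symbol from the tables: PHGDH, PSAT1 and PSPH of serine synthesis, SHMT2, MTHFD2 and ALDH1L2 of the mitochondrial folate pathway, ASNS for asparagine, ALDH18A1 and PYCR1 for proline, and GPT2 for alanine. All 10 were found among 25343 genes. RNA sequencing covered 4 libraries, 1 per group, from C4-2B ENZR cells with an MAOA hairpin, C4-2B ENZR cells with a control hairpin, LNCaP cells with an MAOA hairpin, and LNCaP cells with a control hairpin. Both are human prostate cancer lines. C4-2B ENZR is a derivative of the LNCaP lineage that resists the antiandrogen enzalutamide and was kept in 20 µM of it, in both of its groups, whereas no enzalutamide is stated for LNCaP. All cultures had 10% fetal bovine serum, and all carried a lentiviral hairpin under antibiotic selection, aimed at the MAOA coding region in the knockdowns and at no gene in the controls. MAOA is the mitochondrial monoamine oxidase A, and the comparison asked which transcripts differ when it is silenced. The names given to the knockdown libraries differ by line, so it is unknown if 1 hairpin sequence was used for both, and no group has a second library.

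Serine is made from the glycolytic intermediate 3-phosphoglycerate by PHGDH, PSAT1 and PSPH in that order. In mitochondria SHMT2 moves a carbon from serine to tetrahydrofolate, MTHFD2 oxidises the product, and ALDH1L2 can oxidise the formyl form to carbon dioxide with production of NADPH. ASNS makes asparagine from aspartate and glutamine. When amino acids run short or the endoplasmic reticulum or mitochondria are stressed, kinases that phosphorylate eIF2α favour translation of ATF4, which then binds composite C/EBP-ATF elements at such genes.

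MAOA RNA was lower in the knockdown library of each line, with 219 CPM (counts per 1000000, as scaled by the authors) against 327 CPM in the control of C4-2B ENZR, and 139.5 CPM against 445 CPM in the control of LNCaP. Depth was 23679869 recovered reads in the C4-2B ENZR knockdown, 23479051 in its control, 52012696 in the LNCaP knockdown and 52550452 in its control. All 9 luminal prostate markers examined were detected in every library, although KLK3, the gene of prostate-specific antigen, stood at 6.34 CPM in knockdown and 3.72 CPM in control C4-2B ENZR cells, and at 2716 CPM in knockdown and 2391 CPM in control LNCaP cells. The 3 basal markers summed to at most 1.15 CPM, with KRT5 at 0 reads in both C4-2B ENZR libraries, and the 4 leukocyte markers summed to at most 0.246 CPM. Of the 5 fibroblast markers COL1A2 had no read in any library and COL1A1 was at 44.4 to 60.9 CPM, and of the 6 neuroendocrine markers CHGA was at no more than 0.163 CPM while ENO2 was at 34.6 to 87.1 CPM; the part of such cells in the results was not tested. With 1 library per group no value within a line has a replicate check, the intervals given cover counting error only, and more RNA in each cell and more cells that express a gene cannot be told apart.

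Asparagine synthetase had the largest ratio of knockdown to control among the 10 genes in C4-2B ENZR, and among the 9 measured in LNCaP. ASNS had 336 CPM in the C4-2B ENZR knockdown and 149 CPM in its control, and 334 CPM in the LNCaP knockdown and 192 CPM in its control. Both knockdown libraries were above both control libraries, a comparison of levels across 2 tables that were normalized separately. The log2 ratio of knockdown to control, computed on CPM + 1, was 1.17 in C4-2B ENZR (95% counting interval 1.12 to 1.23), or 2.25-fold, which ranks 26 from the top of 13810 genes with a mean of at least 1 CPM. In LNCaP it was 0.80 (0.77 to 0.84), or 1.74-fold, rank 210 of 13787.

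The upstream sequence of ASNS is shown because ATF4 is known to act there. RefSeq's window for the more upstream of the gene's annotated starts (GRCh38.p14, minus strand) is used. It holds the core of the C/EBP-ATF response element, TGATGNAA, 68 to 61 bases before that start. The second nutrient-sensing element, GTTACA, lies 48 to 43 bases before it. Capitals mark both in the 250 bases at chr7:97872409-97872658, written 5′ to 3′ on the gene's strand. The upstream 250 bases of MTHFD2, the other of these genes that rose and has a window in the table, are set beside it (GRCh38.p14, plus strand, chr2:74198365-74198614), with neither motif.
ASNS: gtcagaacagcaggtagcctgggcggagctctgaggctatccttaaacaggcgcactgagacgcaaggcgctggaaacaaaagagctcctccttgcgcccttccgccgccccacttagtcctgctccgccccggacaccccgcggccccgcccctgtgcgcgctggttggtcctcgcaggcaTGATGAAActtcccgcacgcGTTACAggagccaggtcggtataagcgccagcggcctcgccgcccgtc
MTHFD2: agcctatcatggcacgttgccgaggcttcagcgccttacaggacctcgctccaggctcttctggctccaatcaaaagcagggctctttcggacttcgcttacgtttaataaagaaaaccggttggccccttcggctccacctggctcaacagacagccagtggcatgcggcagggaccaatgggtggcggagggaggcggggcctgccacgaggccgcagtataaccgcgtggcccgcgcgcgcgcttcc

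Windows of 300 bases, from 250 before to 50 after the start, matched 5 of the 10 genes (ASNS in 2 windows for 2 starts, MTHFD2, PHGDH, PSAT1 and ALDH18A1). Searched on both strands, TGATGNAA was found in 1 of these genes and in 3.62% of all 35116 windows. GTTACA was found in the same gene and in 6.66% of all windows, and 0.498% of windows held both at any spacing. The motifs do not overlap each other in ASNS, and the window of its other start holds neither. A match is a description of letters and not of binding, and these windows leave out introns and more distant sequence. PSPH, SHMT2, ALDH1L2, PYCR1 and GPT2 were not matched.

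**Figure D1:**
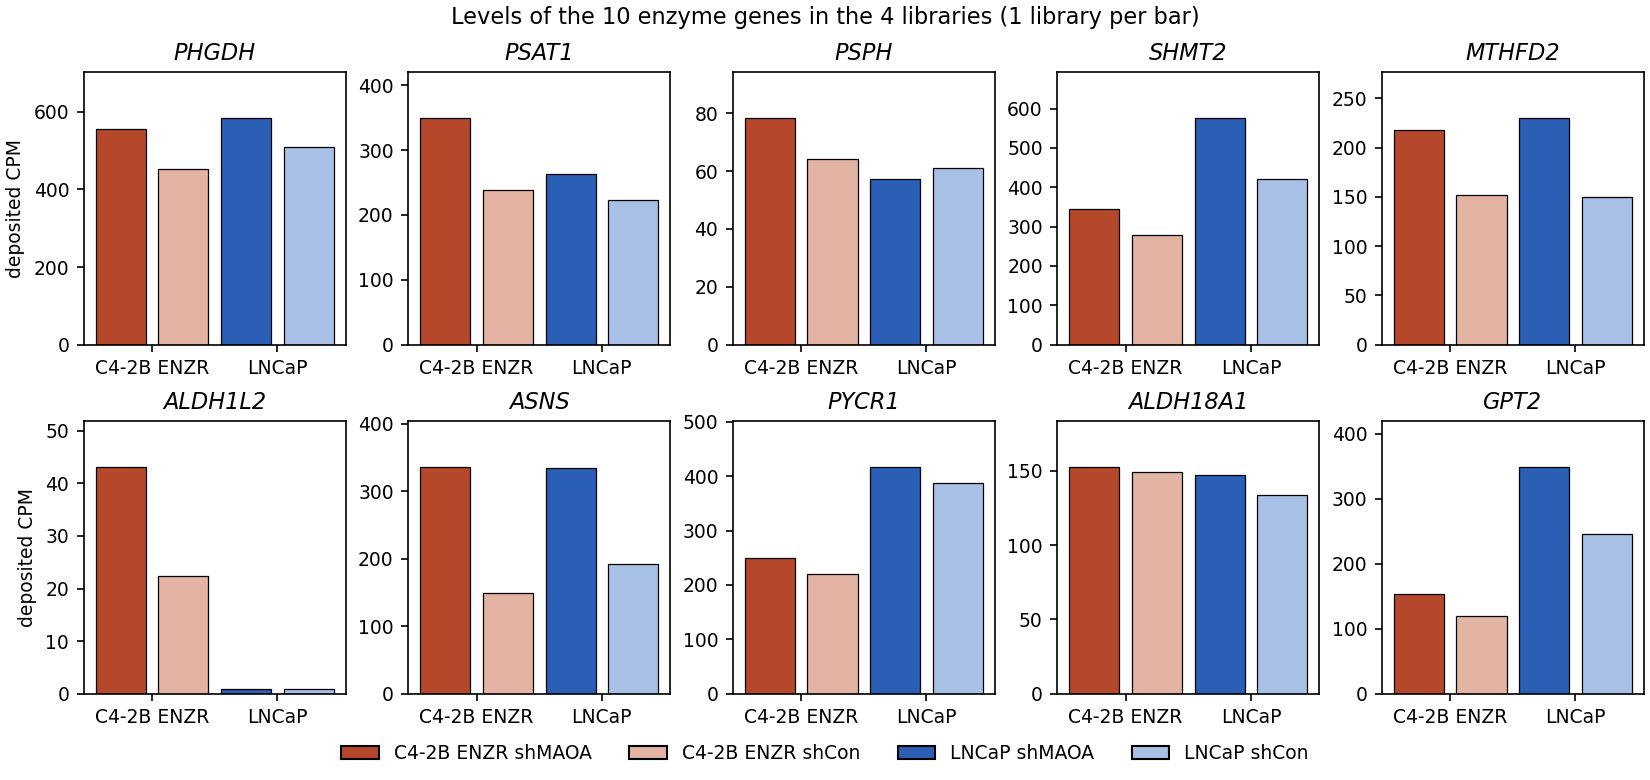
Deposited CPM (vertical axis of each panel, starting at 0, with its own scale) of the 10 enzyme genes in 4 libraries, 1 library per bar and no error bar because no group has a second library. On this scale all but PSPH and ALDH1L2 were higher in the knockdown than in the control of both lines. For PHGDH, PYCR1 and ALDH18A1 the direction in LNCaP depended on the scaling. PSPH was higher only in C4-2B ENZR. ALDH1L2 reached 43.2 CPM in knockdown and 22.4 CPM in control C4-2B ENZR cells and stayed under 1 CPM in LNCaP.

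All 3 mitochondrial folate enzymes were higher in the C4-2B ENZR knockdown than in its control, and SHMT2 and MTHFD2 also in that of LNCaP. SHMT2, which makes glycine and a folate-bound carbon from serine, had 344 CPM in the C4-2B ENZR knockdown and 279 CPM in its control, and 577 CPM in the LNCaP knockdown and 421 CPM in its control. MTHFD2, the dehydrogenase and cyclohydrolase that follows it, had 218 CPM in knockdown and 152 CPM in control C4-2B ENZR cells, and 230.5 CPM in knockdown and 149.7 CPM in control LNCaP cells. For both genes each knockdown library was above its own control. The log2 ratios of SHMT2 were 0.30 in C4-2B ENZR (counting interval 0.26 to 0.35) and 0.45 in LNCaP (0.43 to 0.48). Those of MTHFD2 were 0.52 (0.46 to 0.58) and 0.62 (0.58 to 0.66).

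ALDH1L2, the mitochondrial 10-formyltetrahydrofolate dehydrogenase, separated the lines. It had 43.2 CPM (1062 reads) in the C4-2B ENZR knockdown and 22.4 CPM (554 reads) in its control, a log2 ratio of 0.92 (0.80 to 1.10) and rank 55 of 13810 genes. In LNCaP it had 0.880 CPM (43 reads) in the knockdown and 0.899 CPM (51 reads) in the control, where the counting interval of the ratio ran from -0.65 to 0.58 and so no difference was detectable. In recovered reads per 1000000, a scale free of the authors' factors, ALDH1L2 was at 44.8 in knockdown and 23.6 in control C4-2B ENZR cells, and at 0.827 in knockdown and 0.970 in control LNCaP cells. It was the 1 member with under 1 CPM on average in a table, and it therefore did not enter the test over both lines. The libraries of a line share a lane-like suffix in their labels, so line and suffix cannot be told apart, and the gap between the lines is a description.

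All 3 serine synthesis enzymes were higher in the C4-2B ENZR knockdown than in its control. In LNCaP PSAT1 was higher under each scaling tried, PHGDH under each except equal library sums (log2 ratio -0.0036), and PSPH was lower under each. PHGDH, which starts the pathway, had 555 CPM in knockdown and 453 CPM in control C4-2B ENZR cells, and 585 CPM in knockdown and 510.1 CPM in control LNCaP cells. PSAT1, the aminotransferase, had 350.0 CPM in knockdown and 238 CPM in control C4-2B ENZR cells, and 263 CPM in knockdown and 223 CPM in control LNCaP cells. PSPH, the phosphatase, had 78.5 CPM in knockdown and 64.1 CPM in control C4-2B ENZR cells, and 57.4 CPM in knockdown and 61.2 CPM in control LNCaP cells. The log2 ratios in C4-2B ENZR were 0.29 for PHGDH (0.26 to 0.33), 0.55 for PSAT1 (0.51 to 0.60) and 0.29 for PSPH (0.19 to 0.39). In LNCaP they were 0.20 (0.17 to 0.22), 0.24 (0.21 to 0.28) and -0.09 (-0.16 to -0.02). In reads per 1000000 PHGDH was level in LNCaP, at 549.5 in the knockdown and 550.9 in the control, so the higher CPM of the knockdown there lies in the scaling factors of the table.

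The proline enzymes had the smallest ratios in C4-2B ENZR. In LNCaP the direction of ALDH18A1 turned with equal library sums (log2 ratio -0.06), and that of PYCR1 turned with equal sums (-0.09), with recomputed TMM (-0.01) and with centring on the median gene (-0.03). ALDH18A1, the synthase of pyrroline-5-carboxylate, had 153 CPM in knockdown and 149 CPM in control C4-2B ENZR cells, and 147 CPM in knockdown and 134 CPM in control LNCaP cells. PYCR1, the mitochondrial reductase that completes proline, had 249 CPM in knockdown and 220.3 CPM in control C4-2B ENZR cells, and 418 CPM in knockdown and 387 CPM in control LNCaP cells. The log2 ratio of ALDH18A1 was 0.04 in C4-2B ENZR, with a counting interval of -0.03 to 0.10, and 0.14 in LNCaP. That of PYCR1 was 0.18 (0.12 to 0.23) for C4-2B ENZR and 0.11 (0.08 to 0.14) for LNCaP. GPT2, the mitochondrial alanine aminotransferase, was further apart, with 153 CPM in knockdown and 119 CPM in control C4-2B ENZR cells, and 349 CPM in knockdown and 246 CPM in control LNCaP cells, at log2 ratios of 0.36 (0.29 to 0.43) and 0.50 (0.47 to 0.54).

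Within a line few members passed a fixed fold. Their share at least 1.5-fold higher was above that of all genes measured, though it rests on 2 members in each line. In C4-2B ENZR 2 of 10 members, ASNS and ALDH1L2, were at least 1.5-fold higher in the knockdown, against 1.59% of all genes measured, and none was 1.5-fold lower, against 0.963%. ASNS was also past 2-fold, against 0.29% of all genes. The members had a median log2 ratio of 0.33 there and all genes one of 0.00. In LNCaP 2 of 9 measured members, ASNS and MTHFD2, were at least 1.5-fold higher, against 4.98% of all genes, none was 2-fold higher, against 0.58%, and none was 1.5-fold lower, against 1.57%. The LNCaP median was 0.24 for the members and 0.11 for all genes measured.

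The LNCaP ratios carry an offset that sets how many members count as higher. Genes with a mean of at least 10 CPM had a median log2 ratio of 0.13 in LNCaP and -0.01 in C4-2B ENZR. Relative to that median, the LNCaP ratios of ASNS, MTHFD2, GPT2 and SHMT2 were 0.66, 0.49, 0.37 and 0.32. The other 5 members measured there ranged from -0.22 for PSPH to 0.11 for PSAT1, with PYCR1 at -0.03, ALDH18A1 at 0.00 and PHGDH at 0.06. After this centring ASNS alone stayed 1.5-fold higher in LNCaP, against 2.34% of all genes. By rank, which 1 scaling factor per library hardly moves, MTHFD2 exceeded 95.9%, GPT2 91.9% and SHMT2 89.3% of the genes in LNCaP, PSAT1 68.5%, PHGDH 62.4%, and PSPH 22.9%. ALDH18A1 exceeded 53.8% and PYCR1 49.3% there. In C4-2B ENZR the same measure was 97.6% for MTHFD2, 98.0% for PSAT1, 93.7% for GPT2, 91.1% for SHMT2, 90.7% for PHGDH, 90.3% for PSPH, 80.1% for PYCR1 and 57.5% for ALDH18A1. Together the 10 genes took 2575 of every 1000000 reads in the C4-2B ENZR knockdown and 1945 in its control, and 2782 in the LNCaP knockdown and 2510.3 in its control.

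**Figure D2:**
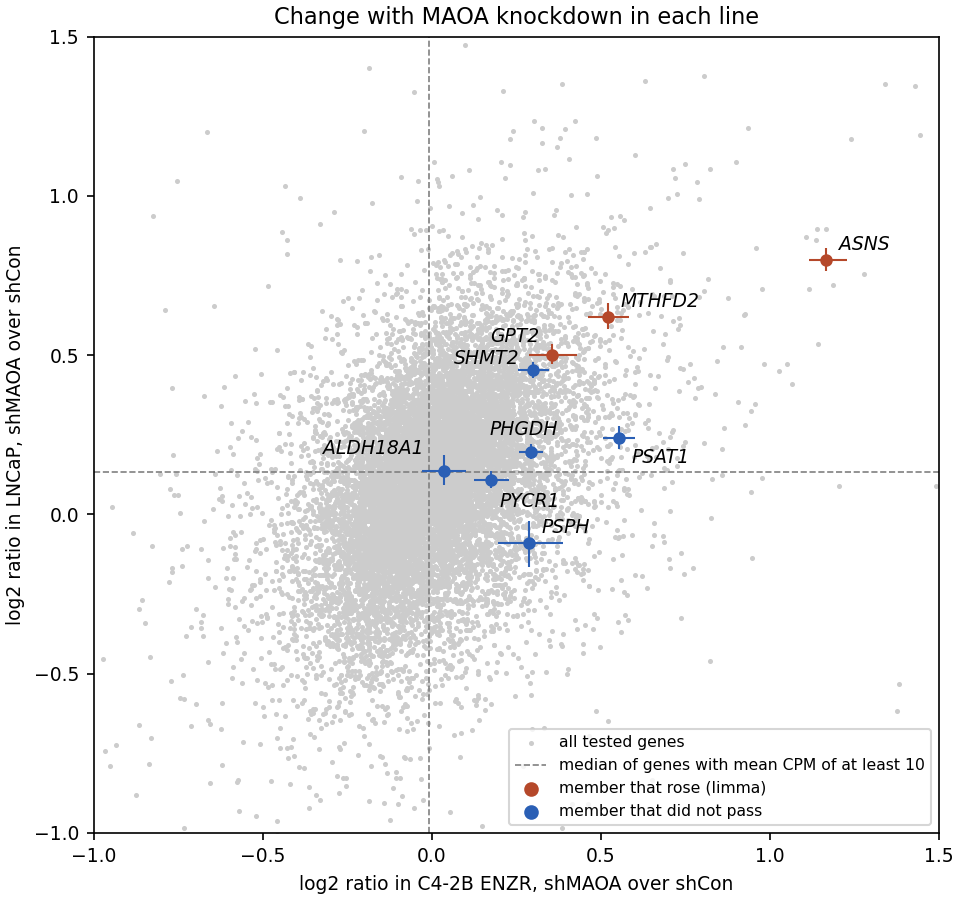
Log2 ratio of knockdown to control in C4-2B ENZR (horizontal axis) and LNCaP (vertical axis) for all tested genes (grey, those beyond the axes not drawn) and for the 9 members tested, with 95% counting intervals that use no pseudocount and dashed lines at the medians of genes with a mean of at least 10 CPM. ASNS lies at 1.17 and 0.80. MTHFD2, GPT2, SHMT2, PSAT1 and PHGDH also lie above both dashed lines, and ALDH18A1 lies almost on the LNCaP line. PYCR1 (0.11) and PSPH (-0.09) lie below the LNCaP line.

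Over both lines ASNS, MTHFD2 and GPT2 rose, and no member fell. This was tested with limma on log2(CPM + 1) with line as a term and Benjamini-Hochberg adjustment over 13114 genes, at an adjusted p of 0.05. The 3 of 9 members that rose stand against 4.22% of all genes that rose, and the 0 that fell against 1.49% that fell. In edgeR with recomputed TMM 2 rose and 0 fell, against 164 and 114 of all 13114 genes. At an unadjusted p under 0.05 limma had 5 members higher, against 13.8% of all genes, and 0 lower, against 5.39%. Counts of 0 that fell or were lower among 9 members do not set them apart from all genes. ASNS had a mean log2 ratio of 0.98 (SE 0.13, adjusted p = 5.42e-10 in limma), MTHFD2 one of 0.57 (SE 0.13, limma adjusted p = 0.000797) and GPT2 one of 0.43 (SE 0.13, limma adjusted p = 0.0232), each higher in 2 of 2 lines. PSAT1 (mean 0.40, limma adjusted p = 0.0531) and SHMT2 (0.38, 0.0932) missed the threshold, and so did PHGDH (0.25, 0.381), PYCR1 (0.14, 0.629), PSPH (0.10, 0.743) and ALDH18A1 (0.09, 0.777). Over all genes 554 rose and 195 fell, against 578 and 543 with centred ratios and 351 and 653 with equal library sums. The SE is pooled over genes, because 1 residual degree of freedom stood beside a prior of 276. It hardly measures a gene's own spread between the lines.

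ASNS and MTHFD2 passed in 10 of 11 other fits and GPT2 in 6 of 11. In edgeR's quasi-likelihood test on recovered reads with recomputed TMM, which called 1.25% of genes higher, ASNS (adjusted p = 0.00546) and MTHFD2 (0.0229) passed and GPT2 did not (0.0728). With the ratios centred in each line, where 4.41% of genes rose in limma, PSAT1 (adjusted p = 0.0214) and SHMT2 (0.0263) passed as well and 5 members rose in all. Without a filter on low values limma called no gene at all, as its prior then had 0.733 degrees of freedom.

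Many of these enzymes have a sister that does the same reaction in another compartment or form, and the ratio of reads between sisters within a library does not depend on the scaling of that library. For SHMT2 over SHMT1, the mitochondrial over the cytosolic serine hydroxymethyltransferase, the ratio was 3.27 in the C4-2B ENZR knockdown and 2.64 in its control, and 8.56 in the LNCaP knockdown and 4.78 in its control. The log2 difference, knockdown over control, was 0.31 (counting interval 0.22 to 0.40) in C4-2B ENZR and 0.84 (0.77 to 0.91) in LNCaP. In LNCaP the sisters lay in opposite directions, with SHMT1 at 67.4 CPM in the knockdown and 88.1 CPM in the control. In C4-2B ENZR SHMT1 was level, at 105.0 CPM in the knockdown and 106 CPM in the control.

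MTHFD2 over MTHFD1, the cytosolic trifunctional folate enzyme, gave the same direction. The ratio of reads was 0.785 in the C4-2B ENZR knockdown and 0.513 in its control, and 1.56 in the LNCaP knockdown and 0.812 in its control, with log2 differences of 0.61 in C4-2B ENZR (0.54 to 0.69) and 0.94 in LNCaP (0.89 to 1.00). MTHFD2 had more reads than MTHFD1 in the LNCaP knockdown and fewer in the other 3 libraries. In the LNCaP knockdown MTHFD1 was at 148 CPM against 184 CPM in the control. MTHFD2L, the other mitochondrial enzyme of this step, was near 1 CPM in each library (1.34 CPM in knockdown and 1.54 CPM in control C4-2B ENZR cells, and 1.27 CPM in knockdown and 1.66 CPM in control LNCaP cells). For MTHFD2 over MTHFD2L the log2 difference was 0.72 in C4-2B ENZR (0.04 to 1.39) and 1.01 in LNCaP (0.54 to 1.47).

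For PYCR1 over PYCRL, the pyrroline-5-carboxylate reductase-like gene, the log2 difference was 0.29 in C4-2B ENZR (0.19 to 0.40) and 0.55 in LNCaP (0.47 to 0.63). PYCRL was at 80.4 CPM in knockdown and 87.2 CPM in control C4-2B ENZR cells, and 51.2 CPM in knockdown and 69.6 CPM in control LNCaP cells. GPT2 over GPT, the cytosolic alanine aminotransferase, gave -0.06 in C4-2B ENZR (-0.46 to 0.35) and 0.10 in LNCaP (-0.11 to 0.31), neither detectable at this depth. GPT was low, at 4.80 CPM in knockdown and 3.60 CPM in control C4-2B ENZR cells, and 8.06 CPM in knockdown and 6.11 CPM in control LNCaP cells. ASNS over ASNSD1, a gene with an asparagine synthetase domain, gave 1.29 in C4-2B ENZR (1.16 to 1.41) and 0.80 in LNCaP (0.68 to 0.92). ALDH1L1, the cytosolic sister of ALDH1L2, had 1 read in knockdown and 2 reads in control C4-2B ENZR cells, under the 3 reads taken as the floor, and 49 reads in knockdown and 31 reads in control LNCaP cells. Over both lines none of the sister enzymes named here that were tested passed in limma or in edgeR with recomputed TMM. Of all genes limma called 4.22% higher and 1.49% lower, and edgeR 1.25% higher. A count of none among so few genes does not set them apart. PYCRL had the smallest limma adjusted p (0.189), which became 0.0328 with centred ratios. Whether a member and its sister differ over both lines was not tested.

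**Figure D3:**
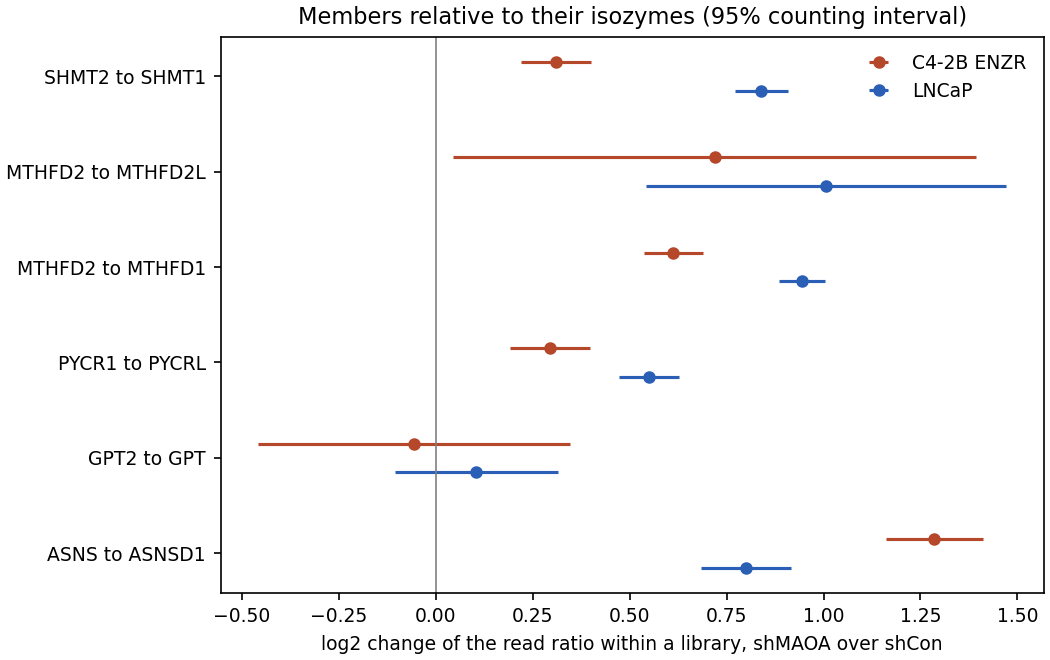
Log2 difference, knockdown over control, of the ratio of reads between a member and a related enzyme within a library (horizontal axis), for 6 pairs in C4-2B ENZR and LNCaP, with 95% counting intervals. SHMT2 to SHMT1 sits at 0.31 and 0.84 and MTHFD2 to MTHFD1 at 0.61 and 0.94, whereas GPT2 to GPT lies near 0.

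Levels of the members were compared with each other per kilobase of a GENCODE 29 transcript. In the C4-2B ENZR knockdown PHGDH was highest at 215 CPM per kb, followed by PSAT1 (160.0), ASNS (143), SHMT2 (136) and PYCR1 (131), and then by MTHFD2 (49.0), ALDH18A1 (45.5), GPT2 (38.3), PSPH (36.0) and ALDH1L2 (5.72). In the C4-2B ENZR control ASNS was at 63.3 CPM per kb, behind PHGDH (175), PYCR1 (116), SHMT2 (110.0) and PSAT1 (109). In the LNCaP knockdown SHMT2 (227), PHGDH (226) and PYCR1 (219) were within a few percent of each other, ahead of ASNS (142) and PSAT1 (120.3). In the LNCaP control PYCR1 (203) and PHGDH (197) led, followed by SHMT2 (166), PSAT1 (102) and ASNS (81.3). PSPH and ALDH1L2 were the lowest in each of the 4 libraries. With 1 library per group there is no spread against which close neighbours in this order could be told apart, and the order depends on the transcript chosen.

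Other genes of the folate pathway did not pass in limma. Of 17 other one-carbon genes tested over both lines, none rose, against 4.22% of all genes, and none fell, against 1.49%. At an unadjusted limma p under 0.05, 1 was higher, against 13.8% of all genes, and 1 lower, against 5.39%. In edgeR with recomputed TMM 1 fell, against 114 of all 13114 genes. Counts of 0 in so short a list do not set it apart from all genes. The list's median log2 ratio came to -0.05 for C4-2B ENZR and -0.08 for LNCaP, or -0.22 for LNCaP relative to the median gene. TYMS, the thymidylate synthase, was the lowest over both lines, with 115 CPM in knockdown and 149.6 CPM in control C4-2B ENZR cells, and 88.4 CPM in knockdown and 112 CPM in control LNCaP cells (limma adjusted p = 0.0665), and it was called lower in edgeR with recomputed TMM (adjusted p = 0.0484). AMT, the aminomethyltransferase of the glycine cleavage system, was the highest at low counts, with 2.52 CPM in knockdown and 1.5 CPM in control C4-2B ENZR cells, and 6.24 CPM in knockdown and 4.02 CPM in control LNCaP cells (limma adjusted p = 0.0622). MTHFD1L, the mitochondrial formyl-tetrahydrofolate synthetase, was at 42.7 CPM in knockdown and 39.1 CPM in control C4-2B ENZR cells, and at 41.2 CPM in knockdown and 35.5 CPM in control LNCaP cells.

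Of 22 other amino acid enzymes tested, 3 rose, against 4.22% of all genes, and 1 fell, against 1.49%. With recomputed TMM in limma 2 rose, against 155 of all 13114 genes, and in DESeq2 2 rose, against 131. CTH, which makes cysteine from cystathionine, had 16.4 CPM in knockdown and 6.87 CPM in control C4-2B ENZR cells, and 25.8 CPM in knockdown and 17.5 CPM in control LNCaP cells (mean log2 0.84, limma adjusted p = 9.56e-06). ASS1, the argininosuccinate synthetase, had 176 CPM in knockdown and 118 CPM in control C4-2B ENZR cells, and 133 CPM in knockdown and 69.9 CPM in control LNCaP cells (0.75, limma adjusted p = 1.45e-06). BCAT1, the cytosolic branched-chain aminotransferase, had 84.9 CPM in knockdown and 49.8 CPM in control C4-2B ENZR cells, and 11.3 CPM in knockdown and 8.21 CPM in control LNCaP cells (0.59, limma adjusted p = 0.0018), and did not pass in DESeq2 (adjusted p = 0.0517). ASRGL1, an asparaginase, fell (mean log2 -0.58, adjusted p = 0.0065 in limma), with 1.79 CPM in knockdown and 2.75 CPM in control C4-2B ENZR cells, and 48.3 CPM in knockdown and 81.0 CPM in control LNCaP cells. ASRGL1 was lower in 2 of 2 lines, but it was named because it passed, and a link to the rise of ASNS was not tested. In C4-2B ENZR it was low, with 44 reads in the knockdown and 68 in the control (counting interval -1.20 to -0.05). It was not tested with a minimum of 5 CPM.

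A further list of 13 genes, labelled ATF4 regulators, holds ATF4 with partners, inhibitors, stress-induced factors and eIF2α kinases. In limma 1 of 13 was lower at an unadjusted p under 0.05, against 5.39% of all genes. After adjustment 7 of 13 rose, against 4.22% of all genes, and none fell, against 1.49%. The counts were 7 and 0 in edgeR with recomputed TMM, against 164 and 114 of all 13114 genes. In DESeq2 they were 5 and 0, against 131 and 90 of all genes, and DDIT3 (DESeq2 adjusted p = 0.292) and CEBPB (0.053) did not pass. ATF4 itself had 625 CPM in knockdown and 431 CPM in control C4-2B ENZR cells, and 732 CPM in knockdown and 453 CPM in control LNCaP cells (mean log2 0.61, limma adjusted p = 0.0031). DDIT3, the stress factor CHOP, had the largest mean log2 ratio of the list (1.13), at 39.0 CPM in knockdown and 26.2 CPM in control C4-2B ENZR cells, and 64.6 CPM in knockdown and 19.1 CPM in control LNCaP cells. ATF4 and DDIT3 were higher in the knockdown of each line, by more for DDIT3 in LNCaP. The pseudokinase gene TRIB3 was at 82.4 CPM in knockdown and 49.6 CPM in control C4-2B ENZR cells, and 197 CPM in knockdown and 94.4 CPM in control LNCaP cells. NUPR1, a stress-induced nuclear protein gene, stood at 171 CPM in knockdown and 96.2 CPM in control C4-2B ENZR cells, and 452 CPM in knockdown and 213 CPM in control LNCaP cells. For TRIB3 and NUPR1, too, each knockdown library was above its control. CEBPG, a dimer partner of ATF4, was at 71.5 CPM in knockdown and 53.5 CPM in control C4-2B ENZR cells, and 152 CPM in knockdown and 75.3 CPM in control LNCaP cells. CEBPB, also a partner, had 67.8 CPM in knockdown and 44.1 CPM in control C4-2B ENZR cells, and 92.1 CPM in knockdown and 67.1 CPM in control LNCaP cells. ATF3, a stress-induced factor, had 24.3 CPM in knockdown and 17.1 CPM in control C4-2B ENZR cells, and 149.98 CPM in knockdown and 65.5 CPM in control LNCaP cells. The mean log2 ratios of these 7 genes ran from 0.53 (CEBPB) to 1.13 (DDIT3). The kinase genes EIF2AK1, EIF2AK2, EIF2AK3 and EIF2AK4 did not pass in limma (adjusted p = 0.298, 0.895, 0.0606 and 0.931), nor did PPP1R15A (0.0548). EIF2AK3 passed in 1 of 11 other fits and PPP1R15A in 2. The list had a median log2 ratio of 0.41 in C4-2B ENZR and 0.69 in LNCaP (0.56 relative to the median gene), so it was higher in LNCaP, where the members' own median was the lower of the lines; the difference between the lines was not tested. ATF5 was the lowest of the list, at 29.4 CPM in knockdown and 42.7 CPM in control C4-2B ENZR cells, and 19.6 CPM in knockdown and 21.0 CPM in control LNCaP cells. Earlier results of these data had already shown genes of this list to be higher, so their direction is no independent evidence.

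Purine synthesis consumes formyl groups from folate. Of 12 genes none rose in limma, against 4.22% of all genes, and 1 fell, against 1.49%. None was higher at an unadjusted limma p under 0.05, against 13.8% of all genes. In edgeR with recomputed TMM none rose, against 1.25% of all genes. Counts of 0 that rose in so short a list do not set it apart from all genes. The gene that fell was ADSS, an adenylosuccinate synthase, at 59.5 CPM in knockdown and 79.3 CPM in control C4-2B ENZR cells, and 24.2 CPM in knockdown and 40.1 CPM in control LNCaP cells (mean log2 -0.56, limma adjusted p = 0.00117). IMPDH2, the highest over both lines, had 542 CPM in knockdown and 498 CPM in control C4-2B ENZR cells, and 445 CPM in knockdown and 367 CPM in control LNCaP cells and missed the threshold (adjusted p = 0.492 in limma). The list's median log2 ratio was -0.03 in each line, or -0.17 for LNCaP relative to the median gene.

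**Figure D4:**
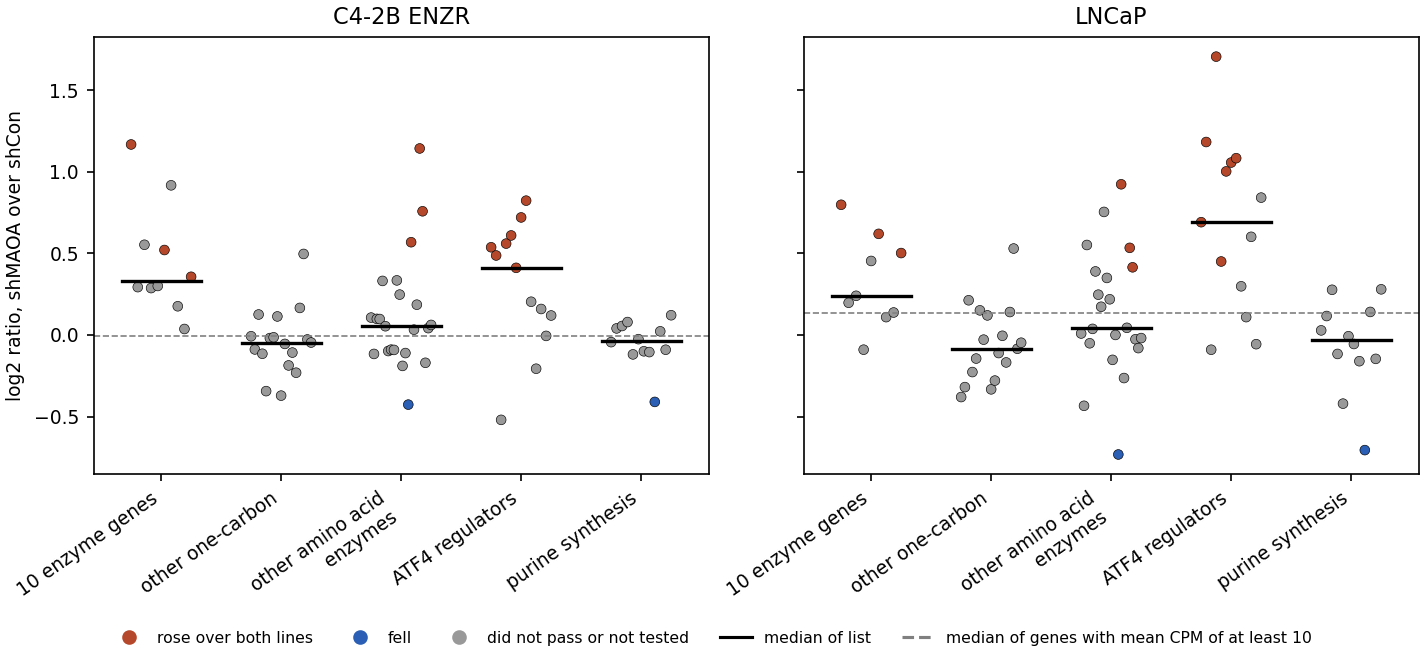
Log2 ratio of knockdown to control (vertical axis) for each measured gene of 5 lists in C4-2B ENZR and LNCaP, coloured by the limma call over both lines, with list medians (black) and the median of genes with a mean of at least 10 CPM (dashed). The medians of the 10 enzyme genes are 0.33 and 0.24 and those of the ATF4 regulators 0.41 and 0.69, while the other one-carbon and purine lists lie at -0.08 to -0.03.

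Reads of some members can be shared with other annotated genes, which was checked on GENCODE 29 transcripts. No 50-base word of the PHGDH, ALDH18A1 or GPT2 transcript occurs in another gene. Of the words of ASNS 82.0% do, among others in AC079781.5, a record on the same strand that overlaps 44.6% of its exon bases and has no row in the tables. For MTHFD2 the share was 35.7%, and opposite-strand genes that include SLC4A5 overlap 33.2% of its exon bases. SLC4A5 passed as higher over both lines in limma (adjusted p = 0.0412) but in only 4 of 11 other fits, with centred ratios (0.0683) and edgeR with recomputed TMM (0.126) among those it missed. It was at 11.7 CPM in knockdown and 8.78 CPM in control C4-2B ENZR cells, and 17.2 CPM in knockdown and 11.2 CPM in control LNCaP cells. The pseudogene MTHFD2P1 was below 2 CPM in all 4 libraries. PYCR1 (19.3%), SHMT2 (10.7%) and PSPH (8.36%) shared fewer words. The labels do not state whether counting used strand, and the part of shared reads in the ratios was not tested.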

How the data were processed

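Total RNA of 4 cell cultures was sequenced as single reads of 50 nt. Per the submitters' processing notes, Bowtie2 2.1.0, RSEM 1.2.15, edgeR and hg19 were used. The sources used here give neither the annotation nor a strand setting. The authors deposited 1 table per line, holding CPM after TMM scaling (trimmed mean of M-values). For LNCaP the deposited column of the knockdown sums to more than plain CPM allow, so that table was handled as a signal in CPM-like units. Every value (100%) was a whole multiple of 1 read's worth within 0.01 read, so whole counts were recovered, called reads here. They come after RSEM, and the counting intervals do not cover how it assigned reads shared between genes.

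Ratios were taken within a table on CPM + 1, for genes with a mean of at least 1 CPM, with exact conditional (Clopper-Pearson) 95% intervals from the reads; intervals of read ratios between 2 genes are normal approximations on the log scale. The test over both lines used limma 3.58.1 (R 4.3.3) on all 4 libraries with line as a term, and alternatives with edgeR 4.0.16 and DESeq2 1.42.0 on recovered reads. The count test edgeR called 164 genes higher and 114 lower with TMM recomputed, which lay 0.12 (log2) below the deposited scaling in LNCaP and matched it in C4-2B ENZR. Within a line, knockdown and control are paired by design through the line term. Levels per kilobase, shared words and gene overlaps used GENCODE 29, which need not be the authors' annotation. The limit that a count of 0 allows was taken as 3 reads, or 0.122 CPM in knockdown and 0.121 CPM in control C4-2B ENZR cells, and 0.0614 CPM in knockdown and 0.0529 CPM in control LNCaP cells. The members, lists and rules were chosen with earlier results of these data known. Named beside the members were their sister enzymes (1 of them is not reported here) and copies, MAOA, and of each other gene list the highest, the lowest and all genes that passed. MTHFD1L, the EIF2AK genes, PPP1R15A and the overlapping genes were named outside that rule, after their values were seen. The cell type markers named singly were chosen in the same way.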

Additional observations from a re-analysis of the deposited data

Results flagged for a closer look

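For 2 members the log2 ratio had opposite signs in the lines, a difference that was not tested. That of PSPH was 0.29 for C4-2B ENZR and -0.090 for LNCaP, and neither counting interval includes 0. That of ALDH1L2 was 0.92 for C4-2B ENZR and -0.014 for LNCaP, where 43 reads in the knockdown and 51 reads in the control leave an interval of -0.65 to 0.58 that includes 0.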

How the results depend on the processing

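The members' count that rose (3) was 5 with centred ratios and 0 without a filter on low values, a setting in which limma called no gene of any list or of all genes, so 0 other amino acid enzymes and ATF4 regulators rose and 0 amino acid and purine genes fell. In LNCaP the members at least 1.5-fold higher numbered 1 with centred ratios, with recomputed TMM and with each library scaled to an equal sum, and their median log2 ratio was then 0.11, 0.12 and 0.040; past 2-fold there were 0 in LNCaP and 1 in C4-2B ENZR. With equal sums PSPH and ALDH18A1 had mean log2 ratios of -0.01 and -0.02. Of the other one-carbon genes 1 rose with a prior without trend, and 1 fell with centred ratios, with recomputed TMM in limma and in edgeR, and 2 with equal sums. Of the other amino acid enzymes 0 fell with a mean of at least 5 CPM and 2 with centred ratios or equal sums; 2 purine genes fell in the same 2 settings and 1 ATF4 regulator with equal sums. Of all genes 155 rose and 108 fell with recomputed TMM in limma, 164 and 114 in edgeR with it, 131 and 90 in DESeq2, 351 and 653 with equal sums, 326 rose with a prior without trend, and 543 fell with centred ratios. The cause was not tested. GPT2 also missed the threshold with recomputed TMM (adjusted p = 0.0609), a prior without trend (0.0822) and DESeq2 (0.0732). Leaving out a line leaves the other line's ratio with no test, so that ASNS lay between 0.80 and 1.17, MTHFD2 between 0.52 and 0.62, GPT2 between 0.36 and 0.50, and PSPH between -0.09 and 0.29. PSAT1 passed with a minimum of 5 CPM (adjusted p = 0.047). MTHFD2 summed with MTHFD2P1 stayed within its counting interval in both lines.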

Other observations

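NDUFA4L2, a gene whose exons overlap those of SHMT2 on the opposite strand, rose over both lines (limma adjusted p = 4.01e-05, passed in 8 of 11 other fits), with 2.11 CPM in knockdown and 0.809 CPM in control C4-2B ENZR cells, and 13.9 CPM in knockdown and 6.22 CPM in control LNCaP cells. GLUD1, the mitochondrial glutamate dehydrogenase, had 154 CPM in knockdown and 164 CPM in control C4-2B ENZR cells, and 224 CPM in knockdown and 132 CPM in control LNCaP cells, and did not pass (adjusted p = 0.11 in limma). Both genes were chosen after their values were seen.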
